A study of Mus musculus with 167 samples.

Results

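Txnip and 9 genes of the thioredoxin, peroxiredoxin and glutathione systems were described in single lymphoid-primed multipotent progenitors (LMPPs), early blood progenitors of the bone marrow with lymphoid and granulocyte-monocyte potential. The genes are Txnip, Txn1, Txn2, Txnrd1, Prdx1, Prdx2, Sod1, Cat, Gpx1 and Gclm, 10 of the 38924 genes in the expression table, and all 10 were found in it by symbol. The list was chosen by name, around Txnip, and Txnip was chosen by its measured difference between the ages in earlier results of these data. The levels that follow, above all that of Txnip, are therefore a description and were not tested. The cells came from female C57BL/6J mice of 14 months and of 4 months, with no treatment or transgene given in the labels. They were sorted as lineage-negative, Sca-1+, c-Kit+, CD150-, CD34+ cells with high Flt3, and single cells were captured on a Fluidigm C1 microfluidic chip, which lyses each cell and amplifies its cDNA in a chamber of its own. The labels name no animal, so each age counts as 1 sample, differences between ages have no replicate check and no p-value is given.

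Levels are in TPM, a transcript abundance that is scaled by transcript length and to the same total in every cell. Detection means a TPM of 1 or above. Columns with 1000 or more detected genes were used, 66 of 84 of 14 months and 64 of 84 of 4 months. The 14-month columns carry a set number, 4 (29 kept cells) or 5 (37 kept cells), which the sources used here do not explain. The columns of the younger mice carry none, so age and capture cannot be told apart. A median of 3281 genes was detected per 14-month cell, against 3974.5 per 4-month cell, and the median mitochondrial share of TPM was 17.7% at 14 months and 12.4% at 4 months. Flt3, the receptor behind the gate, was detected in 92.4% of 14-month and all 4-month cells, and Cd34 in 87.9% of 14-month and 89.1% of 4-month cells. Kit was detected in 53.0% of 14-month and 67.2% of 4-month cells, and Ly6a, which encodes Sca-1, in 37.9% of 14-month and 39.1% of 4-month cells. Transcripts of the excluded markers CD150 (Slamf1), Cd3e and Ly6g were at 0 in all kept cells, while Itgam, which encodes the excluded marker CD11b, was detected in 25.8% of 14-month and 68.8% of 4-month cells. Of the erythroid markers, Gata1, Epor, Alas2, Slc4a1 and Car1 were at 0 in both ages. The summed level of the erythroid markers had a median of 82.9 TPM (range 0 to 2959) at 14 months and 323 TPM (range 0 to 3927) at 4 months. Most of it was Car2, detected in 71.2% of 14-month and 81.2% of 4-month cells. The alpha-globin genes had higher means at 14 months. Hba-a1 had 56.2 TPM in 14-month and 4.45 TPM in 4-month cells (10.6% of 14-month and 7.81% of 4-month cells). In set 4 it had 7.62 TPM and in set 5 94.3 TPM. Hba-a2 had 14.1 TPM in 14-month and 7.30 TPM in 4-month cells. Hba-a1 and Hba-a2 are near-identical copies and can share reads. The beta-globin genes had lower means at 14 months, 0 TPM in 14-month and 13.0 TPM in 4-month cells for Hbb-bs. Hbb-bt had 13.1 TPM in 14-month and 34.2 TPM in 4-month cells. The part of these differences in the results was not tested.

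Thioredoxin is a small protein that reduces disulfide bonds in other proteins and is itself reduced by thioredoxin reductase with NADPH. Txnip, the thioredoxin-interacting protein, is an alpha-arrestin that binds reduced thioredoxin and blocks it, lowers glucose uptake, and is transcribed in response to glucose. Loss of Txnip is known to disturb the quiescence of mouse haematopoietic stem cells and their resistance to oxidative stress. Peroxiredoxins, catalase and glutathione peroxidase remove peroxides, superoxide dismutase makes hydrogen peroxide from superoxide, and glutathione is made by the enzyme of which Gclm is the modifier subunit.

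The promoters of Txnip and Sod1 are shown because these were the only members whose relative difference between the ages, given further on, reached 1 log2 unit. Both are RefSeq sequences of GRCm38.p6, the mm10 build of the files, and run from 250 bases before to 50 bases after RefSeq's start of the gene, which for Sod1 lies a few bases downstream of the GENCODE start given below. The Txnip promoter lies at chr3:96557707-96558006 on the plus strand, before a gene annotated at chr3:96557957-96561883. The Sod1 promoter lies at chr16:90220512-90220811 on the plus strand, before a gene annotated at chr16:90220754-90226329. In the Txnip sequence capitals mark, on either strand, the forkhead sequence GTAAACAA, the carbohydrate response letters CACGAG, the NF-Y box CCAAT and the TATA box letters TATAA. In the Sod1 sequence they mark the NF-Y box CCAAT, the TATA box letters TATAA and the GC box GGGCGG.
Txnip: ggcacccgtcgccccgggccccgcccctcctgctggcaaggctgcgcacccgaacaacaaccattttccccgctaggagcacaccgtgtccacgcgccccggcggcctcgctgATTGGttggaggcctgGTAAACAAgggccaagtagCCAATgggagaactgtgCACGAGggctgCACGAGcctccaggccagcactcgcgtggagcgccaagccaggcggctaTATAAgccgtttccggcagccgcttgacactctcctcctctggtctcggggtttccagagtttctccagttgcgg
Sod1: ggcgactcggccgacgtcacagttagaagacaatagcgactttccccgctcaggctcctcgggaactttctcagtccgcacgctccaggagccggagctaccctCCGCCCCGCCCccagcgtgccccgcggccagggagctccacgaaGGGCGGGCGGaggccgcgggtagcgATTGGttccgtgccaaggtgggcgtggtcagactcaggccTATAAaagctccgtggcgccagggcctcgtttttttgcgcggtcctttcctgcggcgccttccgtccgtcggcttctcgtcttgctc
GTAAACAA, a sequence bound by forkhead factors such as FoxO, was found in the Txnip promoter and in none of the other members' promoters, and in 1.23% of 32851 mouse promoters of the same length. Of the 10 members' promoters, CACGAG was found in those of Txnip and Gclm, against 6.47% of all. A pair of CACGAG elements in the same orientation, 5 bases apart, was in 1 promoter of the 32851, that of Txnip. It is the layout of a carbohydrate response element, which MondoA and ChREBP bind together with Mlx. Only these exact letters were searched, so promoters with other forms of that element were not counted. CCAAT, read by NF-Y, was in 6 members' promoters (37.4% of all), TATAA in 6 (24.9% of all), and GGGCGG, a GC box, in all 10 (35.7% of all). TGACNNNGC, the core of the antioxidant response element read by Nrf2, was in the promoters of Gclm, Prdx1, Sod1 and Txnrd1, against 12.4% of all promoters. The 10 members have 12 promoters among these, and a member counts if any of its promoters matches, while the shares of all are per promoter. These matches describe letters and not binding.

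Txnip was detected in fewer LMPPs of 14 months than of 4 months. At 14 months 21 of 66 cells had it (31.8%, exact Clopper-Pearson 95% interval 20.9 to 44.4%), namely 8 of 29 cells of set 4 (27.6%) and 13 of 37 cells of set 5 (35.1%). At 4 months it was found in 46 of 64 cells (71.9%, interval 59.2 to 82.4%). The intervals cover counting error between cells only. The level per cell had a lowest value of 0, a median of 0 and a highest value of 1094 TPM at 14 months. At 4 months the lowest value was 0, the median 46.7 and the highest 994.6 TPM. Its upper quartile lay at 9.66 TPM in 14-month cells and 332.9 TPM in 4-month cells. The ages thus overlapped over the whole range of values, with most 14-month cells at the bottom of it.

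Exact zeros made up 39 of the 66 cells at 14 months and 16 of the 64 at 4 months. Cells at 100 TPM or more numbered 8 at 14 months (12.1%, interval 5.38 to 22.5%) and 27 at 4 months (42.2%, interval 29.9 to 55.2%). In the cells with Txnip detected, its median was 62.3 TPM for 14-month and 228.5 TPM for 4-month cells, so both the share of cells and the level within them were lower at 14 months. In set 4 that median was 140.7 TPM over 8 cells, and in set 5 it was 43.6 TPM over 13 cells. Averaged over all cells, Txnip had 59.7 TPM in 14-month and 181 TPM in 4-month cells. Without the highest cell of each age these means were 43.8 TPM for 14-month and 168.5 TPM for 4-month cells. The 3 highest cells held 53.4% of the Txnip TPM of the 14-month cells and 21.5% of that of the 4-month cells.

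**Figure D1:**
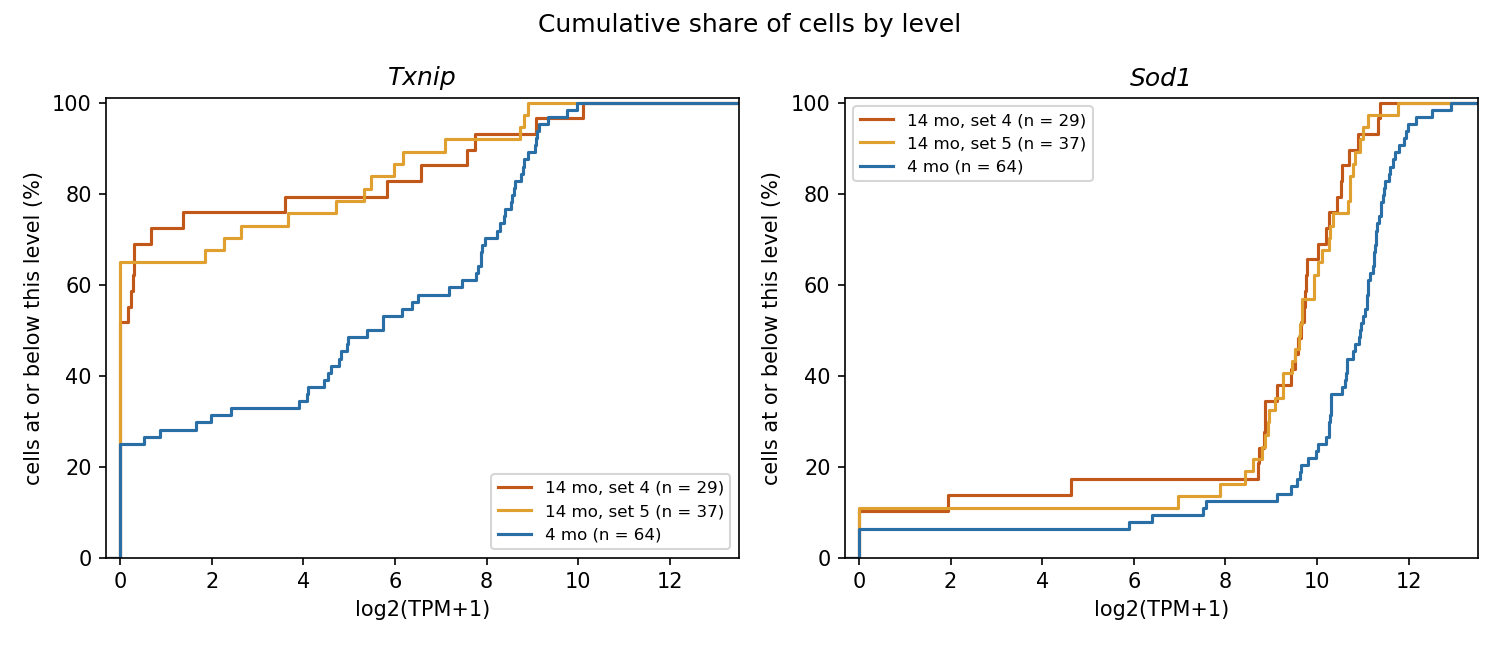
Cumulative share of cells (vertical axis, percent) at or below each level (horizontal axis, log2(TPM+1)) of Txnip, left, and Sod1, right, in 14-month cells of set 4 and set 5 and in 4-month cells. Txnip curves of both sets start above that of 4 months, with 39 of 66 cells of 14 months and 16 of 64 of 4 months at 0 TPM, and the Sod1 curves of both sets run left of the 4-month curve.

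The mean log2(TPM+1) of Txnip was 1.90 ± 3.09 at 14 months and 4.98 ± 3.61 at 4 months (SD over 66 and 64 cells). Genes as a whole also read lower at 14 months. Over the 9224 genes called measured (the mean of their detected shares at the 2 ages at least 10%), the median difference of 14 months minus 4 months was -0.36, and 77.0% of differences were negative. Differences are given from here on relative to that median, as differences in mean log2(TPM+1), where genes of low level show less than their full change. The relative difference of Txnip was -2.72, the 22nd lowest of the 9224, and against the 4-month cells it was -2.70 for set 4 and -2.71 for set 5. Txnip was chosen for this difference.

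Of the 10 members, all measured, 2 were past 1 log2 unit in the lower direction at 14 months, Txnip and Sod1, while 5.08% of all measured genes were. None was past it in the higher direction, against 3.37% of measured genes. In set 4 the same count was 2 lower (6.75% of measured genes) and 0 higher (4.59%). In set 5 it was 1 lower (6.56%), which was Txnip, and 0 higher (6.63%). Because the list was put together around Txnip, nothing is read from these shares. The median relative difference of the 10 was 0.13, with 4 members below and 6 above the median gene, beside quartiles of -0.36 and 0.33 over all measured genes. Over all 10 the median was 0.22 in set 4 and 0.10 in set 5. Without Txnip it was 0.23 for 14 months as a whole, 0.29 in set 4 and 0.28 in set 5.

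**Figure D2:**
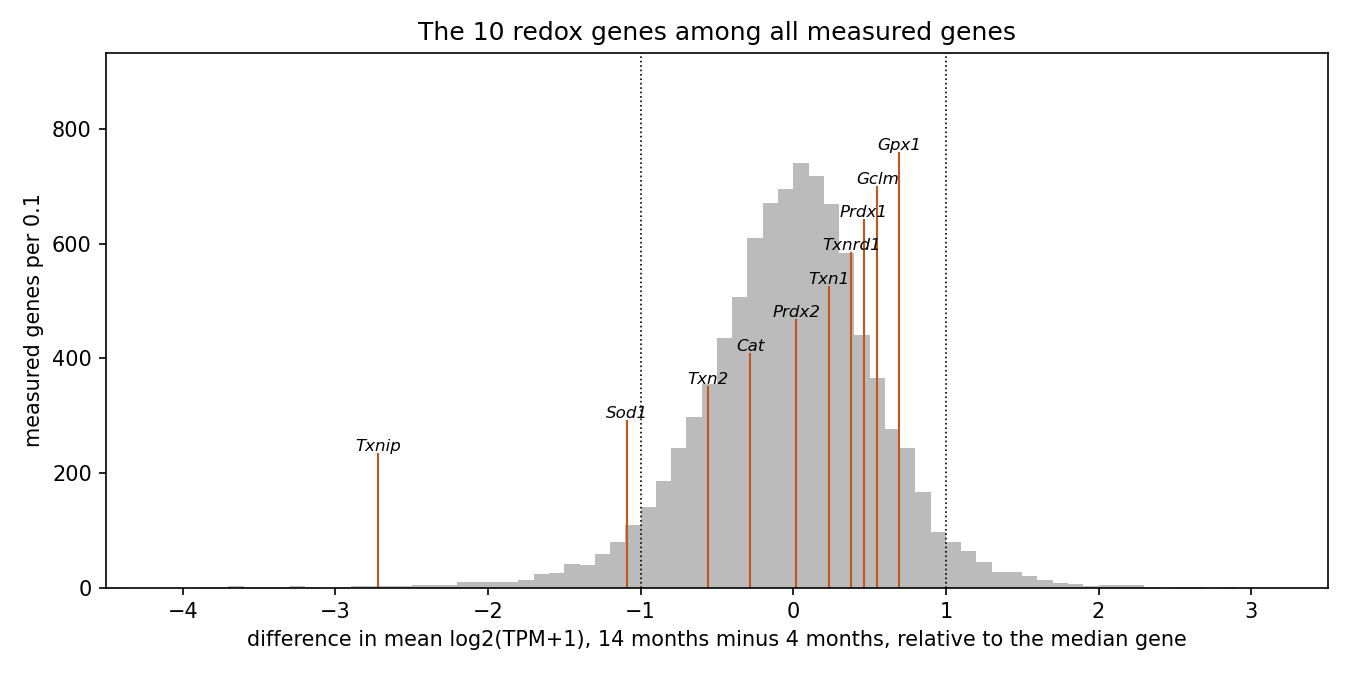
Histogram of the difference in mean log2(TPM+1), 14 months minus 4 months and relative to the median gene (horizontal axis), over the 9224 measured genes (vertical axis, genes per 0.1), with the 10 members as labelled lines whose heights only separate the names. Txnip at -2.72 and Sod1 at -1.09 lie left of the dotted line at -1, and the other 8 lie between -0.56 and 0.69.

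Sod1, the copper-zinc superoxide dismutase of the cytosol, was found in nearly all cells of both ages and at a lower level at 14 months. It was detected in 59 of 66 cells at 14 months (89.4%) and 60 of 64 at 4 months (93.8%). Its lowest value was 0, its median 798 and its highest 3503 TPM at 14 months, with quartiles of 460 and 1282. At 4 months its lowest value was 0, its median 1968 and its highest 7709 TPM, with quartiles of 1141 and 2638. Thus 60 of 66 14-month cells (90.9%, interval 81.3 to 96.6%) lay below the 4-month median, 27 of 29 in set 4 and 33 of 37 in set 5, while the full ranges overlapped. Unlike that of Txnip, its share of cells differed little between the ages, while the level in cells with the transcript was lower, as for Txnip, with a median of 838 TPM in 14-month cells and 2082 TPM in 4-month cells with Sod1 detected. Mean Sod1 was 929 TPM in 14-month and 2000 TPM in 4-month cells.

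The relative difference of Sod1 was -1.09, with -1.20 for set 4 and -0.97 for set 5. Sod1 was at 0 in 7 cells of 14 months and 4 of 4 months, which enter this mean of logs, and the relative difference was -0.37 in the 55 and 60 cells of 14 and 4 months with 2000 or more genes. The median TPM moved less. In those cells it was 813.5 TPM for 14-month and 2019 TPM for 4-month cells, and in 50 cells of each age paired on the number of genes detected it was 812.7 TPM for 14-month and 1772 TPM for 4-month cells. Over 7 ways of choosing or rescaling the cells, taken up after the values were seen, the log2 ratio of the medians, 14 over 4 months, lay between -1.33 and -1.08, against -1.30 as reported.

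The cytosolic and mitochondrial thioredoxins and the cytosolic reductase did not stand out as Txnip did. Txn1, the cytosolic thioredoxin that Txnip binds, had a median of 173 TPM at 14 months (quartiles 10.4 and 338.0) and 191 TPM at 4 months (quartiles 19.2 and 370.1). Detection was in 80.3% of 14-month and 79.7% of 4-month cells, and its relative difference was 0.23 (0.16 in set 4, 0.33 in set 5). Txn2, the mitochondrial thioredoxin, had a median of 24.7 TPM in 14-month and 72.2 TPM in 4-month cells, with detection in 65.2% of 14-month and 70.3% of 4-month cells. Its relative difference was -0.56 (-0.41 in set 4, -0.64 in set 5), and -1.51 when medians over cells replaced means. It lay below the median gene under 12 of 13 alternative ways of processing. In the cells paired on genes detected it was 0.45, the other direction. Txnrd1, the cytosolic thioredoxin reductase, was low in both ages, with a mean of 15.5 TPM in 14-month and 14.7 TPM in 4-month cells and detection in 43.9% of 14-month and 50.0% of 4-month cells. Its relative difference was 0.38, and -0.63 when medians over cells replaced means.

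Since Txnip acts on thioredoxin, the level of each was set against the other within single cells. Txnip exceeded Txn1 in 10 of 66 cells of 14 months (15.2%, interval 7.51 to 26.1%), and in 20 of 64 cells of 4 months (31.2%, interval 20.2 to 44.1%). Both transcripts were detected in 18 cells of 14 months and 41 of 4 months. Txn1 alone was detected in 35 cells of 14 months and 10 of 4 months, and Txnip alone in 3 cells of 14 months and 5 of 4 months. In TPM order, Txnip stood 10th of the 10 members by mean log2 level at 14 months and 7th at 4 months, next below Txn2 (4.99 against 4.98 for Txnip).

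Of the peroxide-removing enzymes, Gpx1 and Prdx1 read above the median gene at 14 months and catalase below it. With means over all kept cells, each did so by less than the 1 log2 line. Gpx1, the cytosolic glutathione peroxidase, had the highest level of the 10 in both ages, with a median of 2473 TPM at 14 months (lowest and highest 7.51 and 10319) and 2376 TPM at 4 months (0 and 7401). All 66 cells of 14 months and 63 of 64 cells of 4 months had it. Its relative difference was 0.69 (0.71 in each set), of which the shift of the median gene makes up 0.36, and 0.06 when medians over cells were used. Prdx1, a cytosolic peroxiredoxin that thioredoxin reduces, had a median of 532 TPM at 14 months and 483 TPM at 4 months, with a relative difference of 0.46 (0.29 in set 4, 0.63 in set 5). Prdx2, another cytosolic peroxiredoxin, known for its abundance in red cells, had a median of 368 TPM at 14 months and 437 TPM at 4 months. Its relative difference was 0.02, but 0.56 in set 4 and -0.37 in set 5, so the sets lay on either side of the median gene.

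Cat, the catalase of peroxisomes, was detected in 28 of 66 cells of 14 months (42.4%) and 34 of 64 cells of 4 months (53.1%). Its median was 0.215 TPM in 14-month and 3.25 TPM in 4-month cells, while its mean was 38.9 TPM in 14-month and 30.8 TPM in 4-month cells. The mean and the median thus pointed in opposite directions, with highest cells of 439.4 TPM at 14 months and 359.5 TPM at 4 months. Its relative difference was -0.28 (-0.51 in set 4, -0.07 in set 5), and -1.81 when medians over cells replaced means. Gclm was detected in 56.1% of 14-month and 53.1% of 4-month cells, with a median of 3.30 TPM at 14 months and 1.84 TPM at 4 months. Its relative difference was 0.55 (0.68 in set 4, 0.48 in set 5).

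**Figure D3:**
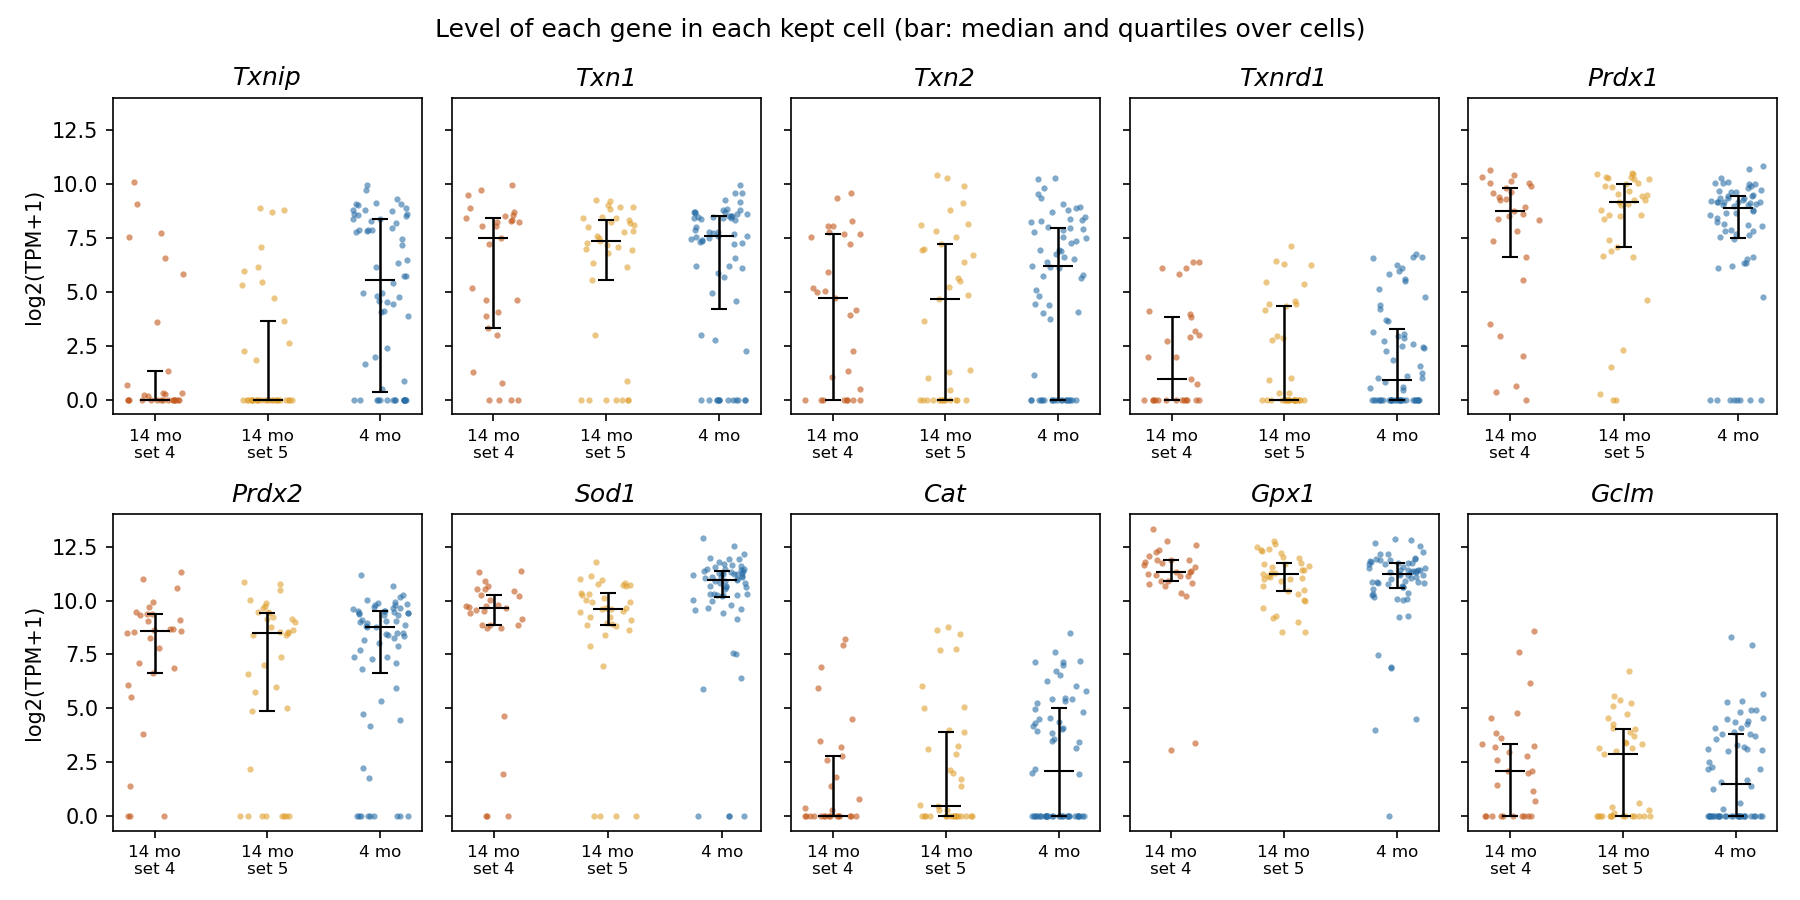
Level of each of the 10 genes (vertical axis, log2(TPM+1)) in each kept cell of 14 months, set 4 (29 cells) and set 5 (37 cells), and of 4 months (64 cells). Points are cells and black bars the median and quartiles over cells. Txnip has most 14-month cells at or near 0 in both sets, Sod1 sits lower in both sets than at 4 months, and the cells of the other 8 overlap. Among those 8, the median of Txn2 is 25.1 TPM in set 4, 24.2 in set 5 and 72.2 at 4 months. That of Cat is 0, 0.4 and 3.255 TPM in the same order, also lower in both sets. That of Gclm, at 3.27, 6.29 and 1.845 TPM, is higher in both.

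By mean log2(TPM+1), the order Gpx1, Sod1, Prdx1, Prdx2, Txn1, Txn2 was the same in set 4, set 5 and the 4-month cells. Sod1 stood closer to Prdx1 at 14 months (8.56 for Sod1, 7.73 for Prdx1) than at 4 months (10.01 for Sod1, 7.63 for Prdx1). Apart from the step between Gpx1 and Sod1 at 14 months, neighbours in the order differed by less than the SD over cells of either gene. Below Txn2, the order of Gclm, Cat, Txnrd1 and Txnip changed from set to set. A median of 7 of the 10 genes was detected per cell at 14 months and of 8 at 4 months, and all 10 were detected together in 6 cells of 14 months and 11 of 4 months.

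The cells nearest the limit of 1000 genes did not have Txnip detected, and the kept ones enter only the denominators of its shares. The 3 columns just below it, with 943, 955 and 998 genes, had 0 TPM of Txnip. Their Sod1 levels were 1584, 0 and 0 TPM. The 3 kept cells just above it, with 1021, 1041 and 1043 genes, had 0, 0 and 0.6 TPM of Txnip and 0, 1295 and 0 TPM of Sod1. Among the columns left out, Txnip was detected in 1 of 18 of 14 months and 1 of 20 of 4 months. With all columns kept its share was 26.2% at 14 months and 56.0% at 4 months.

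Correlation with Txnip over cells was taken within set 4, set 5 and the 4-month cells and averaged over these 3 cell groups. It is a description only, since cells of a group may share a capture, which the labels do not say. All cells also share a fixed TPM total and differ in depth. The Spearman rho of Txnip with the number of genes detected was -0.19 in set 4, 0.39 in set 5 and 0.27 at 4 months. Over the 4683 genes found in at least 20% of cells of each group, the mean rho with Txnip had a median of 0.06, with 5th and 95th percentiles of -0.09 and 0.21.

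Catalase was the member that went most with Txnip. Its rho was 0.40 in set 4, 0.32 in set 5 and 0.24 at 4 months, a mean of 0.32 that exceeds 99.8% of the 4683 genes. With the number of genes detected regressed out of the ranks it was 0.31. The other 8 members lay between the 5th and 95th percentiles of all genes, with means from -0.08 (Prdx1) to 0.13 (Txnrd1), and the median over the 9 was 0.04. With the number of genes detected regressed out, Prdx1 was at -0.19, below the 5th percentile of that measure (-0.16), and the other 7 lay within its percentiles. Of the 9, Cat and Gclm were positive in all 3 groups, a count that was not taken over all genes. Sod1, the other member below the line, had a mean of 0.02, made of -0.31 in set 4, 0.27 in set 5 and 0.10 at 4 months. Txn1 likewise had -0.16 in set 4, 0.29 in set 5 and 0.12 at 4 months. The median over the 4683 genes had the same signs, -0.09 in set 4, 0.15 in set 5 and 0.13 at 4 months.

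Among themselves the members went together more than Txnip did with them. Over the 36 pairs without Txnip the median of the mean rho was 0.27, and 27 pairs were positive in all 3 cell groups. Over the 9 pairs with Txnip the median was 0.04, and 2 were positive in all 3. The highest pairs were Txn1 with Prdx1 and Prdx1 with Gclm, both 0.39. The lowest of all 45 pairs was Txnip with Prdx1, at -0.08. Sod1 had a median rho of 0.31 with the other 9, beside a median of 0.17 with all 4683 genes. Prdx1 had 0.29 beside 0.18, and Gclm had 0.30 beside 0.18. Txnip had 0.04 with the other 9 beside 0.06 with all genes, and Txnrd1 had 0.18 beside 0.18. All members but Txnip and Txnrd1 had a higher median with the members than with all genes.

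**Figure D4:**
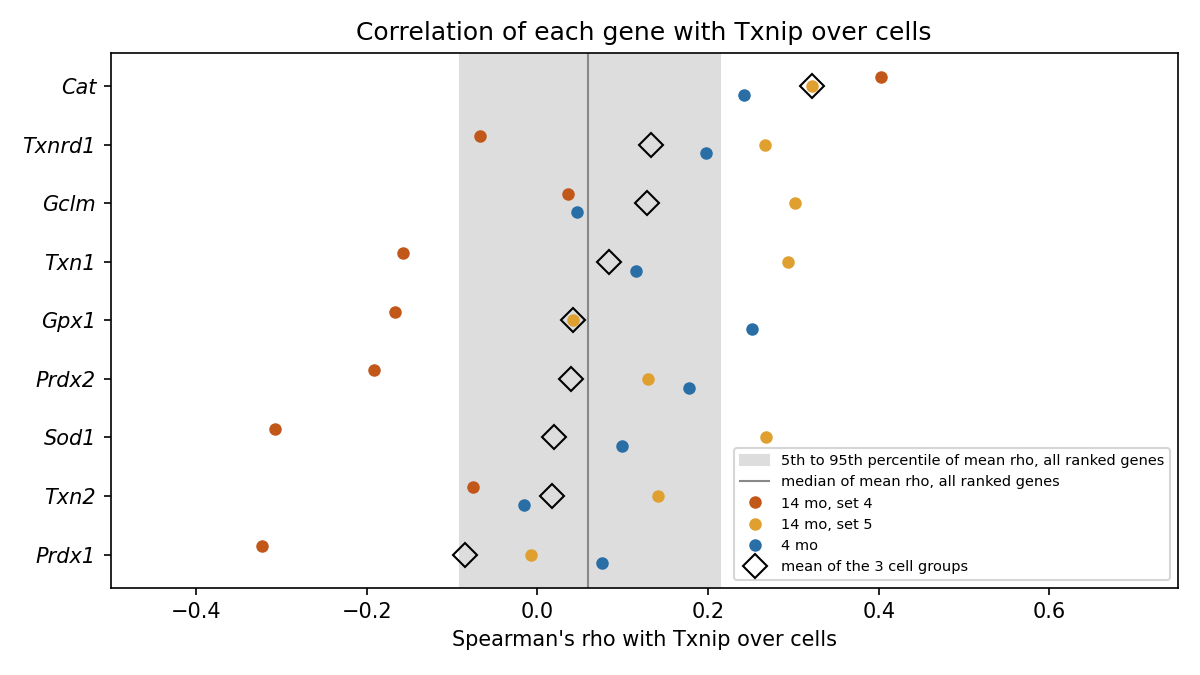
Spearman's rho of each of the other 9 genes with Txnip over cells (horizontal axis) in 14-month cells of set 4 and set 5 and in 4-month cells (points), with the mean of the 3 as an open diamond; the grey band spans the 5th to 95th percentiles of mean rho over 4683 genes and the grey line is their median, 0.06. The diamond of Cat, at 0.32, lies right of the band, and the point of set 4 is leftmost for every gene but Cat.

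The genes most like Txnip over cells were taken among 4253 named genes, with the same mean rho. They were Smarcd2 (0.37), a subunit of SWI/SNF chromatin remodelling complexes, Ubr1 (0.36), a ubiquitin ligase of the N-degron pathway, and Tsc22d1 (0.35), a leucine zipper protein. Rictor (0.35), a subunit of mTOR complex 2, Ankrd13a (0.35), a ubiquitin-binding ankyrin repeat protein, Ddx17 (0.34), an RNA helicase, Klhl6 (0.33), a BTB-Kelch protein of lymphoid cells, and Nr1h2 (0.33), the oxysterol receptor LXR beta, followed. Of these 8, 5 stayed among the top 8 with the number of genes detected regressed out, and Cat, Btg1 and Zyx came in. The lowest were Rnf214 (-0.24), a RING finger protein, Mff (-0.23), a mitochondrial fission factor, Nup205 (-0.23), a nuclear pore subunit, and Slc1a5 (-0.23), a glutamine transporter. All 8 of the most alike were detected in a smaller share of 14-month than of 4-month cells. Fewer genes were detected per cell at 14 months, a median of 3281 against 3974.5 at 4 months. Before the median was taken off, 77.0% of differences over the 9224 measured genes were negative. A smaller share alone therefore does not set these 8 apart, and how many of all genes had one was not counted. Of the 8, 6 had a relative difference between the ages below the median gene and 2 above it. The lowest was Tsc22d1 (-2.28), followed by Ankrd13a (-0.96), and the highest were Rictor (0.07) and Smarcd2 (0.05).

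By the relative difference, no other measured gene on the lists of these pathways was as low as Txnip. That measure understates the change of low-level genes. By mean TPM some of them fell by a larger factor than Txnip, and others rose. Txndc11 had 0.459 TPM in 14-month and 7.08 TPM in 4-month cells, and Txndc9 107 TPM in 14-month and 50.2 TPM in 4-month cells. Of 8 measured thioredoxin relatives, 4 lay below and 4 above the median gene, with a median of -0.09, and 0 were past 1 log2 unit lower and 1 higher. The higher one was Txndc9, a thioredoxin domain protein (1.07, with 1.38 in set 4 and 0.86 in set 5). Next came Tmx1, a thioredoxin-related membrane protein of the endoplasmic reticulum (0.28, with -0.41 in set 4 and 0.86 in set 5). The lowest were Txndc11 (-0.91), detected in 7.58% of 14-month and 45.3% of 4-month cells, and Txndc5 (-0.84), a disulfide isomerase of the endoplasmic reticulum, detected in 10.6% of 14-month and 31.2% of 4-month cells. Of 8 measured genes for peroxide and superoxide removal, 4 lay below and 4 above, none past the line, with a median of 0.01 (-0.39 in set 4, 0.24 in set 5). The ends of that list were the peroxiredoxins Prdx4 (-0.59) and Prdx5 (-0.53), and Park7 (0.64), the DJ-1 protein, and Prdx6 (0.39).

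Glutathione genes were split in the same way. Of 16 measured, 9 lay below and 7 above the median gene, none past the line, with a median of -0.12. Gpx4, which reduces lipid peroxides, was at -0.74, with a median of 138.5 TPM at 14 months and 223.3 TPM at 4 months. Glrx5, a mitochondrial glutaredoxin, was at -0.65, Gsr, glutathione reductase, at 0.79 and Gss, glutathione synthetase, at 0.49. Of 15 measured genes of the Nrf2 pathway, 7 lay below and 8 above, 1 past the line lower and 1 higher, with a median of 0.01. The lower one was Nfe2l2 itself, the gene of the Nrf2 factor (-1.29), detected in 22.7% of 14-month and 42.2% of 4-month cells. The higher one was Taldo1, transaldolase of the pentose phosphate pathway (1.21), detected in 81.8% of 14-month and 68.8% of 4-month cells, while Tkt, the transketolase of that pathway, was at -0.65. Taldo1 was at 0.62 in set 4 and 1.71 in set 5. Ftl1, the ferritin light chain, was at 0.66. Hmox1, Nqo1 and Me1, known Nrf2 targets, were each detected in under 5% of cells of both ages and were not measured.

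Genes around Txnip itself followed no single direction. Of 8 measured alpha-arrestins and glucose-sensing genes, 6 lay below and 2 above the median gene, none past the line, with a median of -0.16. Slc2a3, the glucose transporter GLUT3, was at -0.77 and Mlxip, the gene of MondoA, at -0.53, detected in 19.7% of 14-month and 43.8% of 4-month cells. For Mlxip the difference came from set 5, with -0.92 there and a value of about 0 in set 4. Hk2, a hexokinase, was at 0.41, with the sets at -0.31 (set 4) and 1.02 (set 5), and Mlx at 0.39. Of 5 measured partners and regulators, 2 lay below and 3 above, 1 past the line lower, with a median of 0.21 (0.56 in set 4, -0.24 in set 5). The lower one was Itch, the ubiquitin ligase that marks Txnip for degradation (-1.30), detected in 41 of 66 cells of 14 months (62.1%) and all 64 of 4 months, with a median of 1.52 TPM at 14 months and 6.28 TPM at 4 months. Hif1a was at -0.59, and Casp1 and Pycard, of the inflammasome that Txnip is reported to bind, were at 1.00 (just short of the line) and 0.42.

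Of 10 measured FoxO factors and FoxO target genes, 8 lay below and 2 above the median gene, with a median of -0.66, and 2 were past the line lower and 1 higher, beside 5.08% and 3.37% of all measured genes. The lower ones were Klf2 (-1.87), a transcription factor of quiescent lymphocytes, detected in 21.2% of 14-month and 57.8% of 4-month cells, and Pik3ip1 (-1.23), an inhibitor of PI3 kinase, detected in 21.2% of 14-month and 50.0% of 4-month cells. The higher one was Il7r, the interleukin 7 receptor (1.29), detected in 19.7% of 14-month and 7.81% of 4-month cells. Gadd45a was second highest at 0.05. Klf2 was past the line in both sets (-1.43 in set 4, -2.18 in set 5). Pik3ip1 (-0.67 in set 4, -1.63 in set 5) and Il7r (0.71 in set 4, 1.78 in set 5) were past it in set 5 only. Of 7 measured subunits of superoxide- and peroxide-producing oxidases, 6 lay below and 1 above, with a median of -0.39. Ncf4, a subunit of the phagocyte oxidase, was past the line at -1.12, and Nox1 was at 0.43 and Nox4 at -0.18 (0.28 in set 4, -0.51 in set 5). Of 12 measured G2/M genes, 1 lay below and 11 above, with a median of 0.68 (0.46 in set 4, 0.89 in set 5). Bub1 (1.15), a spindle checkpoint kinase, and Top2a (1.03), a DNA topoisomerase, were past the line higher, 2 of 12 beside 3.37% of all measured genes. Bub1 was at 0.58 in set 4 and 1.64 in set 5, and Top2a at 0.62 in set 4 and 1.38 in set 5. Both were thus past it in set 5 only. Cdc20 was at -0.14 and Birc5 at 0.10, with Birc5 at -0.47 in set 4 and 0.58 in set 5. With a pseudocount of 10 the list medians were 0.28 for the G2/M genes and -0.26 for the FoxO genes. The median rho of the G2/M genes with Txnip over cells was 0.03.

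**Figure D5:**
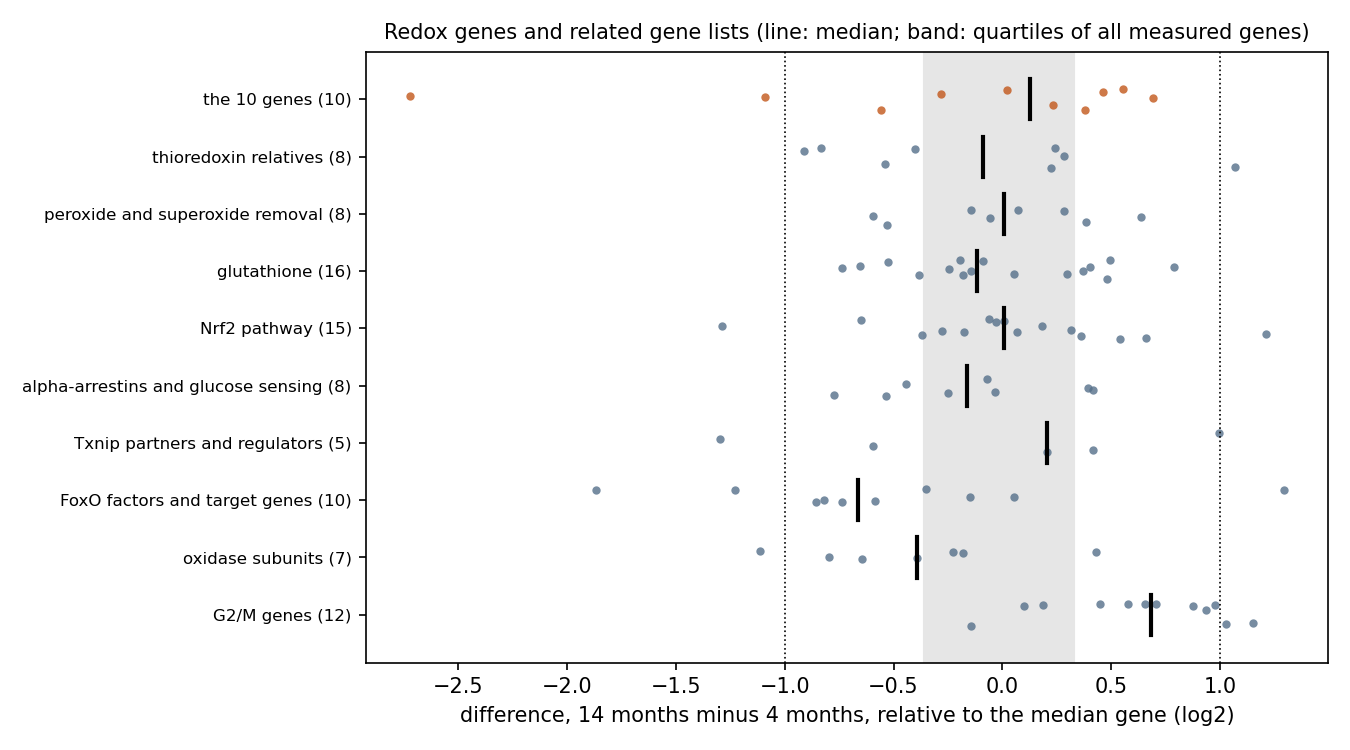
Difference in mean log2(TPM+1), 14 months minus 4 months and relative to the median gene (horizontal axis), for each measured gene of the 10 redox genes and of 9 related lists (number measured in brackets). Points are genes, black lines list medians, the grey band the quartiles of all 9224 measured genes and dotted lines the 1 log2 limits. The medians run from -0.66 (FoxO) to 0.68 (G2/M), and on this measure no listed gene is as low as Txnip.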

How the data were processed

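Single-cell RNA-seq was made from sorted LMPPs on the Fluidigm C1. Per the submitters' processing notes, the authors used Bowtie2 2.2.0, RSEM 1.2.12 and the mm10 build. The authors deposited TPM values, which sum to 1000000 in each column, so read depth is unknown; genes detected per cell are given in its place. Exact zeros can be failed detection. The labels hold 83 single 14-month cells and 84 single 4-month cells, while each age has 84 columns. Column names give the age but not the labelled cell, so columns were pooled by age.

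Levels are means and medians over cells of TPM, and differences are of means of log2(TPM+1), a pseudocount of 1, computed in Python 3.11.15 with numpy 2.4.6, pandas 2.3.3 and scipy 1.17.1. Set differences are relative to their own median gene (-0.43 for set 4, -0.34 for set 5). No count test was used, no doublet caller was run and cells with a high mitochondrial share were kept. Scripts were tested on simulated data. Gene positions are those of GENCODE on the same build. Of 38924 gene identifiers 37607 had a symbol. The members, the wider lists, the markers and the rules were chosen with earlier results of these data known. Genes named are the 10 members, the 2 highest and 2 lowest measured genes of each wider list, and the 8 genes with the highest and the 4 with the lowest mean rho with Txnip, leaving out mitochondrial, pseudogene and predicted genes. The threshold cells and marker genes are added to these, and so are Btg1, Zyx, Hmox1, Nqo1 and Me1, chosen after their values were seen. Some genes that these rules take are not reported here.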

Additional observations from a re-analysis of the deposited data

How the results depend on the processing

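Txnip stayed below the median gene under all 13 alternatives. Its relative difference of -2.72 became -3.74 with a pseudocount of 0.1, -1.65 with a pseudocount of 10, -2.05 with all 168 columns kept and -5.57 with medians over cells. The share of 4-month cells with Txnip became 56.0% with all columns kept. The median of the 10 members, 0.13, became 0.78 with 50 cells of each age paired on genes detected and -0.44 with medians over cells. The count of members past the line lower, 2, became 1 with a pseudocount of 0.1, all columns or set 5 only. It was also 1 with 2000 or more genes, paired cells, or genes found in 30% of cells. The same held with cells dominated by mitochondrial RNA or 1 gene left out. Sod1 lay above -1 in all of these. With medians over cells the count past the line was 4, namely Txnip, Txn2, Sod1 and Cat. The count past it higher, 0, became 2 with all columns (Prdx1 and Gpx1), 3 with paired cells (Txn1, Prdx1 and Prdx2) and 2 with the line at 0.5 (15.8% of measured genes). At that line 3 were past it lower, Txn2 included (18.4% of measured genes). Apart from set 5 only and the line at 0.5, the share of all measured genes past the line was not counted for these alternatives. Nothing is therefore read from their counts. Sod1 and Cat stayed below, and Gpx1, Prdx1 and Gclm above, the median gene under all 13. The median correlation with Txnip, 0.04, became 0.26 with all columns. Among the lists, thioredoxin relatives became 0.67 with paired cells, FoxO genes -1.09 with a pseudocount of 0.1 and -0.26 with one of 10, and G2/M genes 1.23 with a pseudocount of 0.1, 0.28 with one of 10, 1.22 with paired cells, 0 with medians over cells and 1.09 with genes found in 30% of cells. Other than where shown, the cause was not tested. The shift of the median gene, -0.36, was -0.06 after quantile normalization and -0.01 with paired cells. The Txnip partner list had too few measured genes for a value at 30%. Read depth is unknown, so a gene at 0 in a cell may lie below detection. No paired analysis was possible because the cell numbers in the labels mark single cells and do not map to columns.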
